A study of Homo sapiens with 4 samples.

Results

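The 9 HLA genes described here are 5 class I genes (HLA-B, HLA-C, HLA-E, HLA-F and HLA-G) and 4 class II genes (HLA-DMA, HLA-DMB, HLA-DPA1 and HLA-DRA). They are a fixed list of HLA genes named for the KEGG pathway Allograft rejection, chosen by name with the lists of differentially expressed mRNAs of 2 liver cancer cell lines already known, and the pathway holds further HLA genes outside the list. A gene counts as listed when its Ensembl identifier stands under any GO term of the table of that cell line. Of the 9 genes, 1 was listed in HepG2, where 21.6% of all background genes were listed, and 4 were listed in Huh7, where 19.7% were. In all, 6871 genes were listed in at least 1 of the 2 cell lines.

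The series compared HepG2 and Huh7 cells, established hepatocellular carcinoma lines, before and after sonodynamic therapy (SDT). Groups A and B were untreated and treated HepG2, and groups C and D were untreated and treated Huh7, each group being 1 library and 4 in all. The treated cells received nanobubbles carrying hematoporphyrin monomethyl ether (HMME), a sonosensitizer, and lonidamine (LND), an inhibitor of tumor energy metabolism, under low-frequency ultrasound. The untreated groups are the only controls, so the nanobubbles, the 2 drugs and the ultrasound cannot be told apart.

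The tables used here hold names and numbers of genes and no expression value. They therefore give neither the direction nor the size of any change, and no value has a replicate error. A gene that is not listed may have missed the threshold, may have been too low to test, or may carry no GO annotation, and these cannot be told apart. Listing in 1 cell line only does not show that the cell lines differ, and that difference was not tested.

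HLA molecules display peptides on the cell surface for T cells. Class I molecules, made of a heavy chain and beta-2-microglobulin, are found on nearly all nucleated cells and carry peptides cut by the proteasome and moved into the endoplasmic reticulum by the TAP transporter. Class II molecules, made of an alpha and a beta chain, are mostly a feature of professional antigen-presenting cells, where HLA-DM helps peptides to bind and HLA-DO restrains HLA-DM. Interferon-gamma raises both classes, through the coactivators NLRC5 for class I and CIITA for class II.

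The promoters of 5 genes are shown to set a listed gene beside a relative that was not listed. HLA-C and HLA-B are neighbouring classical class I genes, HLA-DMA and HLA-DMB encode both chains of HLA-DM, and HLA-DPA1 encodes the alpha chain of HLA-DP. HLA-C, HLA-DMA and HLA-DPA1 were listed in Huh7, whereas HLA-B and HLA-DMB were listed in neither cell line. Each line gives the 250 bases before the start site in the direction of the gene, from RefSeq on GRCh38.p14, and capitals mark the motif matches described after it. HLA-DPA1 has 2 start sites in that table and the downstream one is shown.
HLA-C, chr6:31272093-31272342, minus strand: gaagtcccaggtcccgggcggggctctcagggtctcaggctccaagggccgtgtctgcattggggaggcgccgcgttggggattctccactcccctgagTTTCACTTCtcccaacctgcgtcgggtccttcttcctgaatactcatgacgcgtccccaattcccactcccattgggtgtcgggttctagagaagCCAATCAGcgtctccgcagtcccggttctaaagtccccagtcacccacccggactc
HLA-B, chr6:31357180-31357429, minus strand: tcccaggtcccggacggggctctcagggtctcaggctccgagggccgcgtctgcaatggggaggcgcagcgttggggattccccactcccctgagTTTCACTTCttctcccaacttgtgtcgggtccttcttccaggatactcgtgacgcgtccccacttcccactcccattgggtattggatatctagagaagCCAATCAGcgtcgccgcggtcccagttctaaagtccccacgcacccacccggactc
HLA-DMA, chr6:32953098-32953347, minus strand: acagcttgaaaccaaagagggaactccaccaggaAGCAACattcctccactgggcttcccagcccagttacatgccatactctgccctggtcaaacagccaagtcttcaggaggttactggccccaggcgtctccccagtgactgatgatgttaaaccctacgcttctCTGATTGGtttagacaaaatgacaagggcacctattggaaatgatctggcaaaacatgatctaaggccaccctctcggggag
HLA-DMB, chr6:32941029-32941278, minus strand: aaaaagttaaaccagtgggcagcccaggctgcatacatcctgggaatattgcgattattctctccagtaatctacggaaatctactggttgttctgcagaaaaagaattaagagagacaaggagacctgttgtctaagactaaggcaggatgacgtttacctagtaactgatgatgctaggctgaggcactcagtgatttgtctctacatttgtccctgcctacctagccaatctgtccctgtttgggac
HLA-DPA1, chr6:33073650-33073899, minus strand: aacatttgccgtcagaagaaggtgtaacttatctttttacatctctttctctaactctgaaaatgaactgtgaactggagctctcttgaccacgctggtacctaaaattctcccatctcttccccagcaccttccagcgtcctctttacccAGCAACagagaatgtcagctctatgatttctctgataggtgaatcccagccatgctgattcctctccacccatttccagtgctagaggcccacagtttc

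Of the 9 genes, 7 have a promoter in the RefSeq table. Motif letters were searched on both strands of the 250 bases, and no 2 matches overlapped within any HLA promoter. The letters CTGATTGG, an inverted CCAAT box with its flanks as found in the Y box of class II promoters, occur in 3.81% of all 35116 promoters. HLA-C and HLA-B both hold them on the opposite strand from -56 to -49, and HLA-DMA holds them from -82 to -75. HLA-F holds them on the opposite strand from -57 to -50, and the third start site of HLA-G from -56 to -49. They are not in the windows of HLA-DMB or HLA-DPA1.

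The letters TTTCNNTTC, a core of interferon response elements, occur in 6.56% of all promoters. They lie from -151 to -143 in HLA-C and from -155 to -147 in HLA-B. The listed HLA-C and the unlisted HLA-B thus carry the same matches in nearly the same places. The letters AGCAAC, found in the X box of class II promoters, occur in 10.3% of all promoters. They lie from -99 to -94 in HLA-DPA1 and from -216 to -211 in HLA-DMA. In HLA-DMA this match lies apart from the CTGATTGG match at -82 to -75, and it was not shown to be an X box. A match is a run of letters and was not tested for binding. A window without a match, such as that of HLA-DMB, may hold a box in other letters.

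The class I genes are taken first. HLA-E, a non-classical molecule that presents leader peptides of other class I chains to the CD94/NKG2 receptors of natural killer cells, was listed in both HepG2 and Huh7, and it was the only one of the 9 to be so. HLA-C, a classical class I chain and a ligand of killer-cell immunoglobulin-like receptors, was listed in Huh7 and not in HepG2. HLA-B, the other classical chain of the set, was listed in neither. HLA-F and HLA-G, non-classical molecules of which HLA-G is best known from the placenta, were also listed in neither cell line. Among the 5 class I genes of the set, 1 (20%) was therefore listed in HepG2 and 2 (40%) in Huh7. Of all background genes, 21.6% were listed in HepG2 and 19.7% in Huh7.

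None of the 4 class II genes of the set was listed in HepG2 and 2 (50%) were listed in Huh7. The shares of all background genes listed were 21.6% and 19.7%. HLA-DMA, the alpha chain of the peptide editor HLA-DM, was listed in Huh7. Its partner HLA-DMB, the beta chain, was listed in neither cell line. HLA-DPA1, the alpha chain of HLA-DP, was listed in Huh7. HLA-DRA, the alpha chain of HLA-DR, was listed in neither.

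The share of the 9 genes that was listed was 11.1% in HepG2 and 44.4% in Huh7. Over all 22148 background genes of the tables, 4783 genes (21.6%) were listed in HepG2 and 4369 genes (19.7%) in Huh7. Because the genes were chosen with this listing known, these shares are a description and were not tested. With 9 genes, 1 gene makes up 11.1% of the set.

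Beside the set, 9 other HLA genes were counted, of which 2 (22.2%) were listed in HepG2 and 1 (11.1%) in Huh7. The background shares were 21.6% and 19.7%. HLA-DOB, the beta chain of HLA-DO, was listed in both HepG2 and Huh7. HLA-DPB1, the beta chain that pairs with HLA-DPA1, was listed in HepG2 only. The chains of HLA-DP were thus listed in opposite cell lines, HLA-DPB1 in HepG2 and HLA-DPA1 in Huh7. HLA-DOA and the HLA-DQ and HLA-DRB genes were listed in neither.

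Over these 18 HLA genes, 3 (16.7%) were listed in HepG2 and 5 (27.8%) in Huh7. HLA-E and HLA-DOB were the 2 genes common to both lists, and 12 genes were in neither. The 2 genes are 11.1% of the 18, and 10.3% of all background genes were in both lists. Of the 13 class II genes among them, 2 (15.4%) were listed in HepG2 and 3 (23.1%) in Huh7. These shares stand beside 21.6% and 19.7% of all background genes. Not every HLA gene is reported here, so the counts over 18 genes are incomplete.

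**Figure D1:**
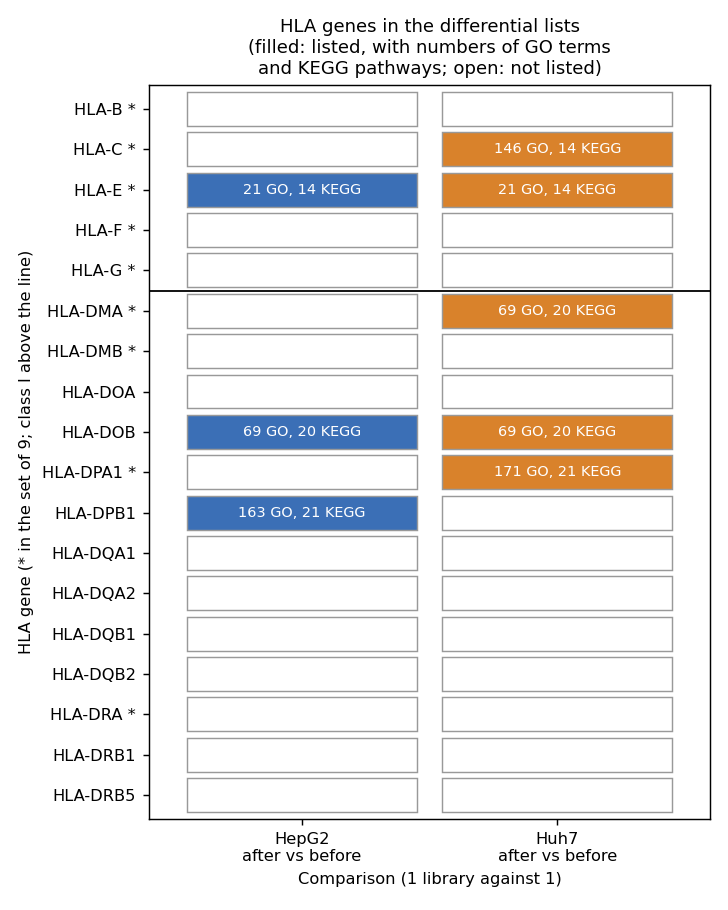
Listing of 18 HLA genes (rows) in the comparisons after against before treatment of HepG2 and Huh7 (columns). Filled cells are listed genes with their numbers of GO terms and KEGG pathways, open cells are genes not listed, and stars mark the set of 9. HLA-E and HLA-DOB are filled in both columns.

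The number of GO terms that hold a gene reflects how fully it is annotated. HLA-E was under 21 GO terms in each table, and these were the same 21 terms in both cell lines. In Huh7 HLA-C was under 146 terms, HLA-DMA under 69 and HLA-DPA1 under 171. Many of these are broad: terms of at most 500 background genes numbered 5 for HLA-E, 39 for HLA-C, 19 for HLA-DMA and 59 for HLA-DPA1.

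The 4 genes listed in Huh7 shared 19 GO terms. The smallest of these were MHC protein complex (143 background genes), antigen processing and presentation of peptide antigen (262) and antigen processing and presentation (317), and the rest were broad terms such as immune response (2873) and plasma membrane (6311). All 21 terms of HLA-E were also terms of HLA-C. HLA-C and HLA-DPA1, a class I and a class II chain, shared 100 terms, which were 68.5% of those of HLA-C and 58.5% of those of HLA-DPA1. HLA-DMA and HLA-DPA1, both class II, shared 49 terms, 71% of those of HLA-DMA and 28.7% of those of HLA-DPA1.

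MHC protein complex had 3 listed genes of 143 in HepG2 (2.1%) and 6 of 143 in Huh7 (4.2%), and all 4 listed genes of the set were among the 6. Its class I branch, with 45 background genes, held HLA-E in HepG2 and both HLA-C and HLA-E in Huh7. Its class II branch held HLA-DOB and HLA-DPB1 in HepG2 and HLA-DMA, HLA-DOB and HLA-DPA1 in Huh7, of 98 background genes. These backgrounds are far above the 18 HLA genes counted here, and the tables do not name the genes in them. The low percentages therefore depend on entries that cannot be read from the tables.

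Antigen processing and presentation had 31 listed genes of 317 in HepG2 (9.78%) and 30 in Huh7 (9.46%). The set gave 1 of the 31, HLA-E, and 4 of the 30. The class I arm had 8 of 101 genes listed in HepG2 and 7 in Huh7, and the class II arm had 16 of 170 listed in each. Peptide antigen binding held 2 listed genes of 101 in HepG2, HLA-DPB1 among them, and 5 in Huh7, among them HLA-C and HLA-DPA1. Peptide antigen assembly with MHC class II protein complex, the function of HLA-DM, held HLA-DMA as its 1 listed gene in Huh7 and none in HepG2.

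Response to interferon-gamma had a higher share than MHC protein complex in both cell lines. It had 53 of 311 genes listed in HepG2 (17%) and 56 in Huh7 (18%). HLA-C and HLA-DPA1 were among the 56, and no gene of the set was among the 53. By the rule on term names, 28 terms on MHC, antigen processing, peptide antigen or interferon-gamma held a gene of the set in at least 1 cell line. All 28 did so in Huh7 and 5 did in HepG2. The listed share was below that of all background genes in all 5 terms in HepG2 and in 25 of the 28 in Huh7. The genes in the backgrounds of these terms are not named, so these low shares carry the same limit as that of MHC protein complex. So does the comparison with response to interferon-gamma. The KEGG pathway Antigen processing and presentation, with 79 background genes, stood at 24.1% in HepG2 and 26.6% in Huh7.

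Among KEGG pathways, 24 held a listed HLA gene in each cell line, of 279 pathways in the HepG2 table and 280 in the Huh7 table. HLA-E was in the same 14 pathways in both. In Huh7 HLA-C was in 14 pathways, HLA-DMA in 20 and HLA-DPA1 in 21. A gene of the set stood in 14 pathways in HepG2 and in all 24 in Huh7, where 10 pathways held 4 of them.

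Allograft rejection, the pathway in which T cells attack the class I and class II molecules of a graft, had 5 listed genes of 39 in HepG2 (12.8%) and 12 of 39 in Huh7 (30.8%). The 5 were HLA-E, HLA-DOB and HLA-DPB1 with CD40, a receptor that helps antigen-presenting cells to mature, and FAS, a death receptor. Among the 12 were HLA-C, HLA-E, HLA-DMA, HLA-DOB and HLA-DPA1 with CD40, the costimulatory ligands CD80 and CD86, their T cell receptor CD28, the death ligand FASLG and the killing protease GZMB. CD40 was the 1 non-HLA gene common to both cell lines. FAS was listed in HepG2 only and its ligand FASLG in Huh7 only.

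The other pathways with 4 genes of the set in Huh7 differed in size. Small immune disease pathways that held the same HLA genes had a higher share in Huh7 than in HepG2. Graft-versus-host disease and Allograft rejection also had the same 5 non-HLA genes listed in Huh7 only: CD28, CD80, CD86, FASLG and GZMB. Autoimmune thyroid disease had 6 of 54 genes listed in HepG2 and 15 in Huh7, type I diabetes mellitus 7 and 13 of 45, graft-versus-host disease 8 and 14 of 43, and viral myocarditis 14 and 19 of 60. Antigen processing and presentation differed less, with 19 of 79 (24.1%) and 21 of 79 (26.6%). When HLA genes were left out, those not reported here included, 16 and 15 listed genes remained, so that the order turned by 1 gene.

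Large pathways of the same kind had like numbers in both cell lines. HTLV-I infection had 70 of 261 genes listed in each. Phagosome had 40 of 155 listed in HepG2 and 38 in Huh7, herpes simplex infection 40 and 36 of 186, and cell adhesion molecules 57 and 54 of 145.

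Over the 24 pathways the listed share was higher in Huh7 in 12, higher in HepG2 in 10 and equal in 2. The median share was 24.2% in HepG2 and 26.6% in Huh7, beside 26.1% over all KEGG pathways in each cell line. The pathways share HLA genes with each other and are not independent.

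**Figure D2:**
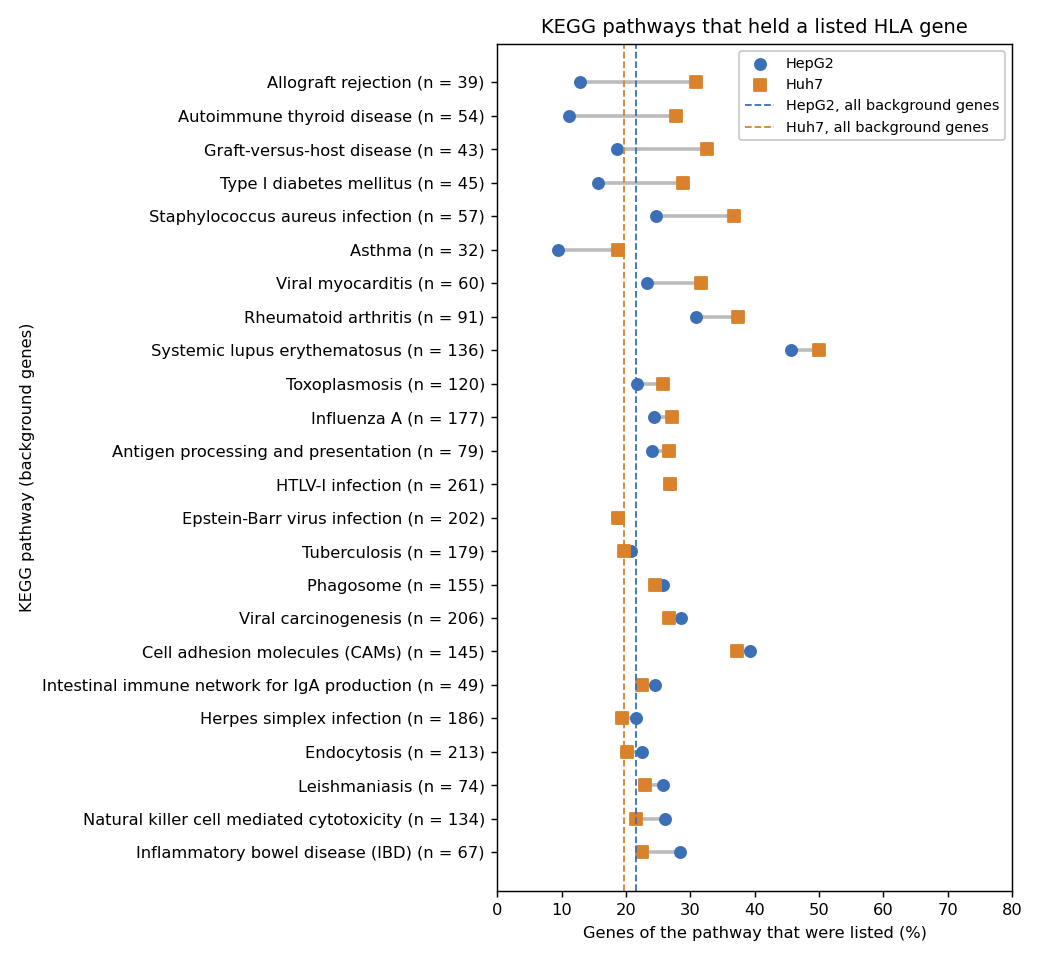
Share of background genes listed (%, x axis) in the 24 KEGG pathways that held a listed HLA gene (y axis, with the number of background genes). Circles are HepG2, squares are Huh7, and dashed lines give the share of all background genes, 21.6% and 19.7%. Allograft rejection has the widest gap, 12.8% against 30.8%, and HTLV-I and Epstein-Barr virus infection have none.

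The genes that serve HLA molecules were counted next, from lists taken by function. Of 15 genes for class I peptide supply and loading, 4 (26.7%) were listed in HepG2 and 0 in Huh7. The 4 were TAP2, a subunit of the peptide transporter, TAPBPL, the peptide editor TAPBPR, and PSMB8 and PSMB9, catalytic subunits of the immunoproteasome. B2M, the light chain of every class I molecule, TAP1, the other transporter subunit, and TAPBP (tapasin) were listed in neither cell line. The background shares were 21.6% and 19.7%.

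Of 7 genes for class II peptide supply and loading, 2 (28.6%) were listed in HepG2 and 3 (42.9%) in Huh7. The proteases CTSS, which trims the invariant chain, and CTSD were listed in both, and CTSL was listed in Huh7 only. CD74, the invariant chain itself, was listed in neither. Of 11 regulators of HLA transcription, 3 (27.3%) were listed in HepG2 and 0 in Huh7, beside 21.6% and 19.7% of all background genes. These were CIITA, the class II coactivator, RFX5, a subunit of the factor that binds the X box, and IRF1, an interferon response factor. NLRC5, the class I coactivator, and the NFY subunits NFYA, NFYB and NFYC, which bind the CCAAT box, were listed in neither.

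Of 9 genes of interferon-gamma signalling, 3 (33.3%) were listed in each cell line, beside background shares of 21.6% in HepG2 and 19.7% in Huh7. STAT2, a factor of interferon signalling, and the feedback inhibitors SOCS1 and SOCS3 were the 3 in both. The cytokine IFNG, its receptor chains IFNGR1 and IFNGR2 and the kinases JAK1 and JAK2 were listed in neither.

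Of 18 class I-like genes, 5 (27.8%) were listed in HepG2 and 2 (11.1%) in Huh7. The shares of all background genes were 21.6% and 19.7%. AZGP1, a secreted class I-like protein, and ULBP1, a ligand of the killer receptor NKG2D, were listed in both. The NKG2D ligands ULBP2 and RAET1G and the iron regulator HFE were listed in HepG2 only. A further 16 partners in T cell help and killing were taken as members of the pathway Allograft rejection. Of these, 2 (12.5%) were listed in HepG2 and 6 (37.5%) in Huh7, and they are the non-HLA genes named above.

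**Figure D3:**
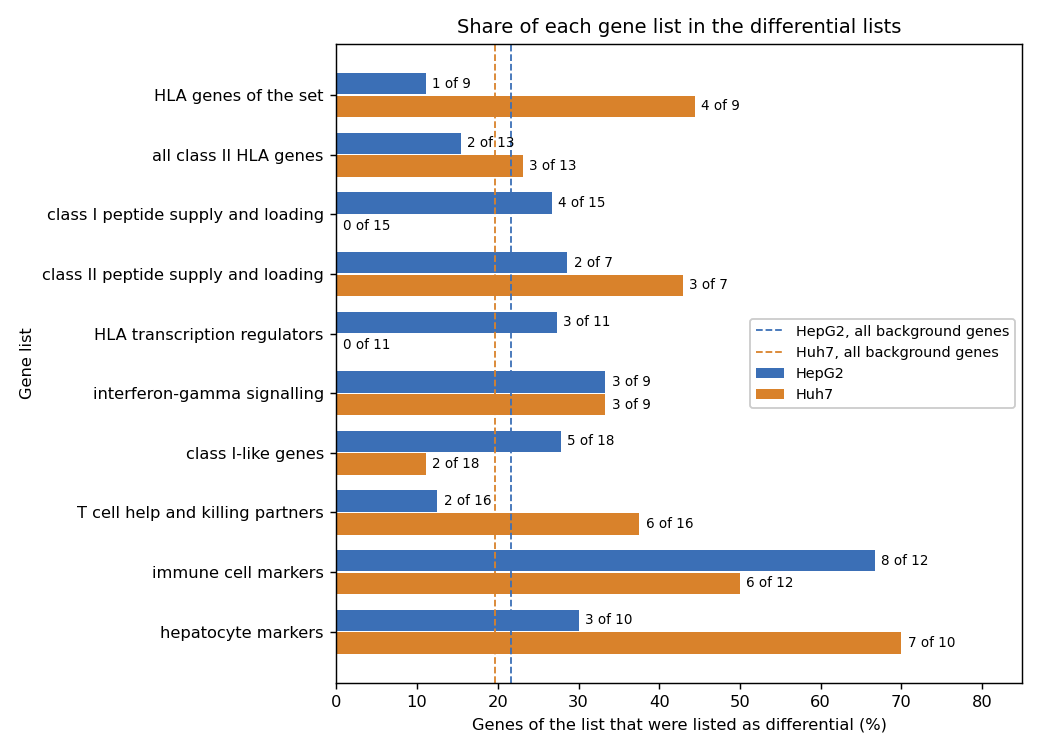
Share of each gene list that was listed as differential (%, x axis) for 10 lists (y axis), with bars for HepG2 and Huh7, the counts printed at the bars and dashed lines for all background genes. The set of 9 stands at 1 and 4 genes, and class I peptide supply and HLA transcription regulators stand at 0 in Huh7.

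Some receptors that read HLA molecules can be seen in the same pathways, and were picked out after their values had been seen. They were not counted against a full list of such receptors. Of all background genes, 21.6% were listed in HepG2, 19.7% in Huh7 and 10.3% in both. KLRD1 (CD94), the shared chain of the receptors for HLA-E, was listed in both cell lines, as were KLRC2 and KLRC3, while KLRC1 (NKG2A) and KLRC4 were listed in HepG2 only. The KLRC genes are close relatives, and reads may be split among them. No killer-cell immunoglobulin-like receptor was among the listed genes with a symbol in Antigen processing and presentation or graft-versus-host disease. CD4, the coreceptor for class II, was listed in both cell lines. CD8B, a chain of the coreceptor for class I, was listed in Huh7 only, together with its close copy CD8B2. CD8A, the other chain of that coreceptor, and the T cell markers CD3D and CD3E were listed in neither cell line. These are genes of lymphocytes, and the tables give no level at which they were expressed.

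HLA genes resemble each other, so the part of each gene's transcripts found letter for letter in another gene was counted in GENCODE release 29. Windows that differ from another gene by a few letters were not counted. At 75 bases, a window also found in another gene made up 1.72% of the windows of HLA-C, 2.02% of HLA-E, 6.84% of HLA-DMA and 0 of HLA-DPA1. HLA-E shared 40 windows with HLA-G. HLA-DMB shared 24.9% and HLA-DMA 6.84% of windows with AL645941.2, a gene model that overlaps both on the same strand. HLA-DOB, outside the set, shared 29.8% with the overlapping model AL669918.1. At 150 bases no window of HLA-C or HLA-E was shared. The count uses the reference sequence, and the alleles carried by HepG2 and Huh7 were not analysed here.

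Exons of several of the genes overlap those of neighbours. HLA-C and HLA-B share 35 exon bases on the same strand, 1.4% of those of HLA-C. HLA-F shares 535 exon bases (12.3%) with HLA-F-AS1 on the opposite strand, and neither was listed. HLA-DPA1 and HLA-DPB1, which run head to head, share 96 exon bases, 1.67% of those of HLA-DPA1. HLA-DMA shares 55 exon bases (2.17%) with BRD2, a bromodomain gene on the opposite strand that was listed in HepG2 only. The libraries were directional, but the strand setting of the counting is not given in the sources used here.

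**Figure D4:**
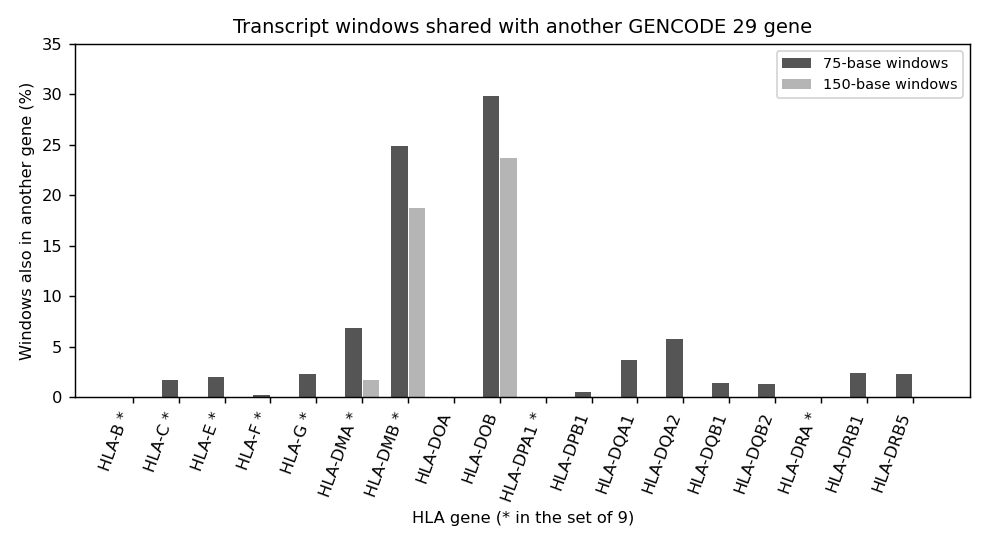
Windows of protein-coding transcripts that also occur in another GENCODE release 29 gene (%, y axis) for 18 HLA genes (x axis), with dark bars for 75 bases and light bars for 150 bases. HLA-DOB (29.8%) and HLA-DMB (24.9%) are the highest at 75 bases, and stars mark the set of 9.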

How the data were processed

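Total RNA of 4 libraries, depleted of ribosomal RNA, was sequenced from HepG2 and Huh7 before and after SDT. The authors computed FPKM values and called mRNAs at an adjusted p-value under 0.05, with Cuffdiff per the paper's methods and edgeR per its results text. Cuffdiff 2.1.1, Bowtie2 2.2.8, HISAT2 and StringTie 1.3.1 are named in the submitters' processing notes. The genome build and annotation are not given in the sources used here. The authors deposited 4 tables with numbers of listed and background genes per GO term (GOseq) or KEGG pathway (KOBAS), with p-values and corrected p-values of enrichment, which were not used. The depth of each library is unknown, since no file used here holds reads.

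Genes were matched by Ensembl identifier. Symbols, gene models and transcripts came from GENCODE release 29 and promoters from RefSeq (GRCh38.p14). Counts were made with Python 3.11.15. The motif and window searches were tested on simulated sequences. The set of genes and the lists were chosen with earlier results of these data known, and the motifs after the promoters had been read. All genes of the set and of the lists were counted, those listed or defining a list were named, and KEGG pathways were named where they held 4 genes of the set. Some genes are not reported here. With 1 library per group, no test was made.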

Additional observations from a re-analysis of the deposited data

How the results depend on the processing

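No paired analysis was possible because each group is 1 library. The number of genes of the set listed was 1 in HepG2, 4 in Huh7 and 1 in both whether GO terms or KEGG pathways were searched together, and the numbers for each cell line were also the same with KEGG pathways alone and with any identifier that carries the symbol. Leaving out HLA genes, with every protein-coding HLA gene of GENCODE release 29 assumed to be in the background and taken out of it, those not reported here included, gave 10% and 30% for Allograft rejection in HepG2 and Huh7 and 26.7% and 25% for Antigen processing and presentation. For the latter, the order of the cell lines turned, by 16 against 15 genes. With protein-coding genes of GENCODE release 29 as the background, 23.9% and 21.9% of all genes were listed. Counting 18 HLA genes in place of 9, an alternative chosen after seeing the data, gave 16.7% and 27.8%. Searching GO or KEGG together changed no count of the other lists. The share of all KEGG background genes was not run, because the tables do not give how many distinct genes the pathways hold. The tables show listing only, for 1 library against 1, so neither the direction of any HLA gene nor its variation between cultures can be read.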

Other observations

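Between HLA-F and HLA-DPA1 on chromosome 6, GENCODE release 29 has 137 protein-coding genes, of which 32 (23.4%) were listed in HepG2, 30 (21.9%) in Huh7 and 14 in both. Of all protein-coding genes of that release, 23.9% and 21.9% were listed, so the region was near the general share. Over all background genes, 10.3% were in both lists. In the stretch of 13 genes from HLA-DOB to HLA-DPB1, HLA-DOB, TAP2, PSMB8, PSMB9, BRD2 and HLA-DPB1 were listed in HepG2. In Huh7 the listed genes of the stretch were HLA-DOB, HLA-DMA and HLA-DPA1. AL669918.1, TAP1, HLA-DMB, AL645941.2 and HLA-DOA were in neither list. The stretch is a small part of the region, and its share was not tested. HLA-DOB was the 1 gene of that stretch in both lists.

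Of 10 hepatocyte markers, 3 (30%) were listed in HepG2 and 7 (70%) in Huh7, beside 21.6% and 19.7% of all background genes. ALB (albumin), AFP (alpha-fetoprotein) and HNF4A, a liver transcription factor, were listed in both, and the plasma protein genes APOA1, APOB, TTR and FGB in Huh7 only. Of 12 immune cell markers, 8 (66.7%) were listed in HepG2 and 6 (50%) in Huh7, beside the same background shares. PTPRC (CD45), CD4, CD14, ITGAM, LYZ and CD68 were listed in both cell lines, and MS4A1 (CD20) and ITGAX (CD11c) in HepG2 only. Both lines are cultures of carcinoma cells, the tables give no level for these genes, and their part in the listing of HLA genes was not tested.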
